A study of Rattus norvegicus with 10 samples.

Results

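The Celf genes encode RNA-binding splicing regulators, examined here in prefrontal cortex from 10 male rats of the inbred Lewis strain. They were read through every probe set that the array's annotation assigns to exactly 1 of the symbols Celf1 to Celf6. This gave 13 of the 31042 probe sets that were not array controls: 5 for Celf1, 4 for Celf2, 2 for Celf3, 1 for Celf4 and 1 for Celf5. Celf6 had 0 probe sets and was not analysed here. The family was chosen from startle: several Celf2 probe sets were lower in those of the same 10 rats that startled more. The startle values below therefore describe that choice and carry no test.

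Each rat gave 1 array, with RNA from a piece of frontal areas Fr1 and Fr2 that left out the olfactory bulb. The rats were untreated, came from a larger tested set and were killed days after the last behaviour test. The labels put all rats in 1 group and give every rat 4 behaviour scores, for startle to a sound, prepulse inhibition, locomotion and sugar feeding, and 7 of them a plus maze score as well, with no unit stated for any score. The study asked how mRNA levels in the brain relate to behaviour among rats of 1 inbred strain. Markers of cortical excitatory neurons were present in every rat, with Slc17a7, the vesicular glutamate transporter, at 12.50 to 12.86 log2 and Neurod6 at 11.27 to 11.61. Drd1, a marker of striatal projection neurons that cortical neurons also express, ranged from 5.79 to 9.60 log2. Other listed striatal markers also varied: Drd2 ran from 4.05 to 7.57 log2, Adora2a from 2.09 to 6.48 and Rarb from 3.59 to 6.76. Penk ran from 10.19 to 12.37 log2, Ppp1r1b from 9.165 to 11.264 and Rgs9 from 4.03 to 5.06. Array medians lay between 3.91 and 4.02 log2 and the labels name no batch. With 10 arrays, 1 per rat, precision is limited for all slopes below.

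CELF proteins bind RNA at sequences rich in G and U through RNA recognition motifs. In the nucleus they steer the choice of alternative exons, often against muscleblind (Mbnl) proteins, and in the cytoplasm they act on the stability and translation of mRNAs. Celf1 and Celf2 are expressed in many tissues, Celf2 strongly in brain, while Celf3, Celf4, Celf5 and Celf6 are concentrated in the nervous system. Celf2 is also known as Cugbp2, Etr3 and Napor.

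All values are log2 expression made with GCRMA, and each probe set is described apart because probe sets of 1 gene can report different transcript ends or isoforms. Levels of different probe sets are not set against each other. A probe set was tested if its mean over the 10 rats lay in the upper 50% of all probe sets, at 3.99 log2 or more, which held for 12 of the 13. The exception was Celf3 probe set 1382338_at, which stayed between 2.02 and 2.10 log2 in every rat.

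Differences between rats were modest in all Celf probe sets. The 12 tested ones spanned 1.20-fold (Celf5) to 1.69-fold (Celf2 1387879_a_at) between the lowest and the highest rat. Their SDs ran from 0.09 log2 for Celf5 to 0.22 log2 for Celf2 1387879_a_at, against a median SD of 0.13 over all 15521 tested probe sets.

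Celf2 was lowest in rat 7 on all 4 of its probe sets and highest in rat 2 on 3 of them. Probe set 1389867_at ran from 12.36 log2 in rat 7 through a median of 12.50 to 12.74 in rat 2. On 1388195_at the lowest, median and highest values were 11.07, 11.35 and 11.77 log2, again in rats 7 and 2 at the ends. Rats 2 and 7 also marked the ends of 1387880_at, at 10.02 and 9.56 log2 with a median of 9.70. The fourth probe set, 1387879_a_at, had its highest value of 9.77 log2 in rat 6, a median of 9.48 and its lowest value of 9.01 in rat 7. Rats 1 and 2, which had the lowest startle scores (394.1 and 362.5), held the 2 highest values on 1389867_at and 1387880_at. On 1388195_at rat 1 was at 11.51 log2, next to 11.52 in rat 6.

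Celf1, the family's founding member and a regulator of splicing and mRNA decay, differed in pattern between its probe sets. On 1388704_at rats 1 and 2 were highest at 11.93 and 11.89 log2, the median was 11.66 and rat 7 was lowest at 11.49. On 1393029_at rats 2 and 1 again led at 11.52 and 11.41, the median was 11.26 and rat 4 was lowest at 11.17. Rat 2 was also highest on 1371900_at (11.23 log2), where rats 10 and 8 lay apart at the bottom with 10.86 and 10.88. The remaining probe sets departed from this: 1393568_at was highest in rat 6 (8.11 log2) and lowest in rat 7 (7.53), and on 1393257_at rat 1 was the lowest rat (6.63) and rat 2 the highest (6.99).

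Among the members concentrated in the nervous system, Celf4, whose loss causes seizures in mice, ran from 12.11 log2 in rat 5 through a median of 12.30 to 12.53 in rat 1. Celf5 was highest in rats 1 and 2 (12.23 and 12.22 log2), had a median of 12.04 and was lowest in rat 9 (11.96). Celf3 1397183_at ran from 7.07 log2 in rat 3 through a median of 7.30 to 7.46 in rat 1. Rat 1 thus had the highest value of each of the 3 genes, and rat 2 was next on Celf3 and Celf5 but came behind rat 6 (12.44 log2) on Celf4.

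**Figure D1:**
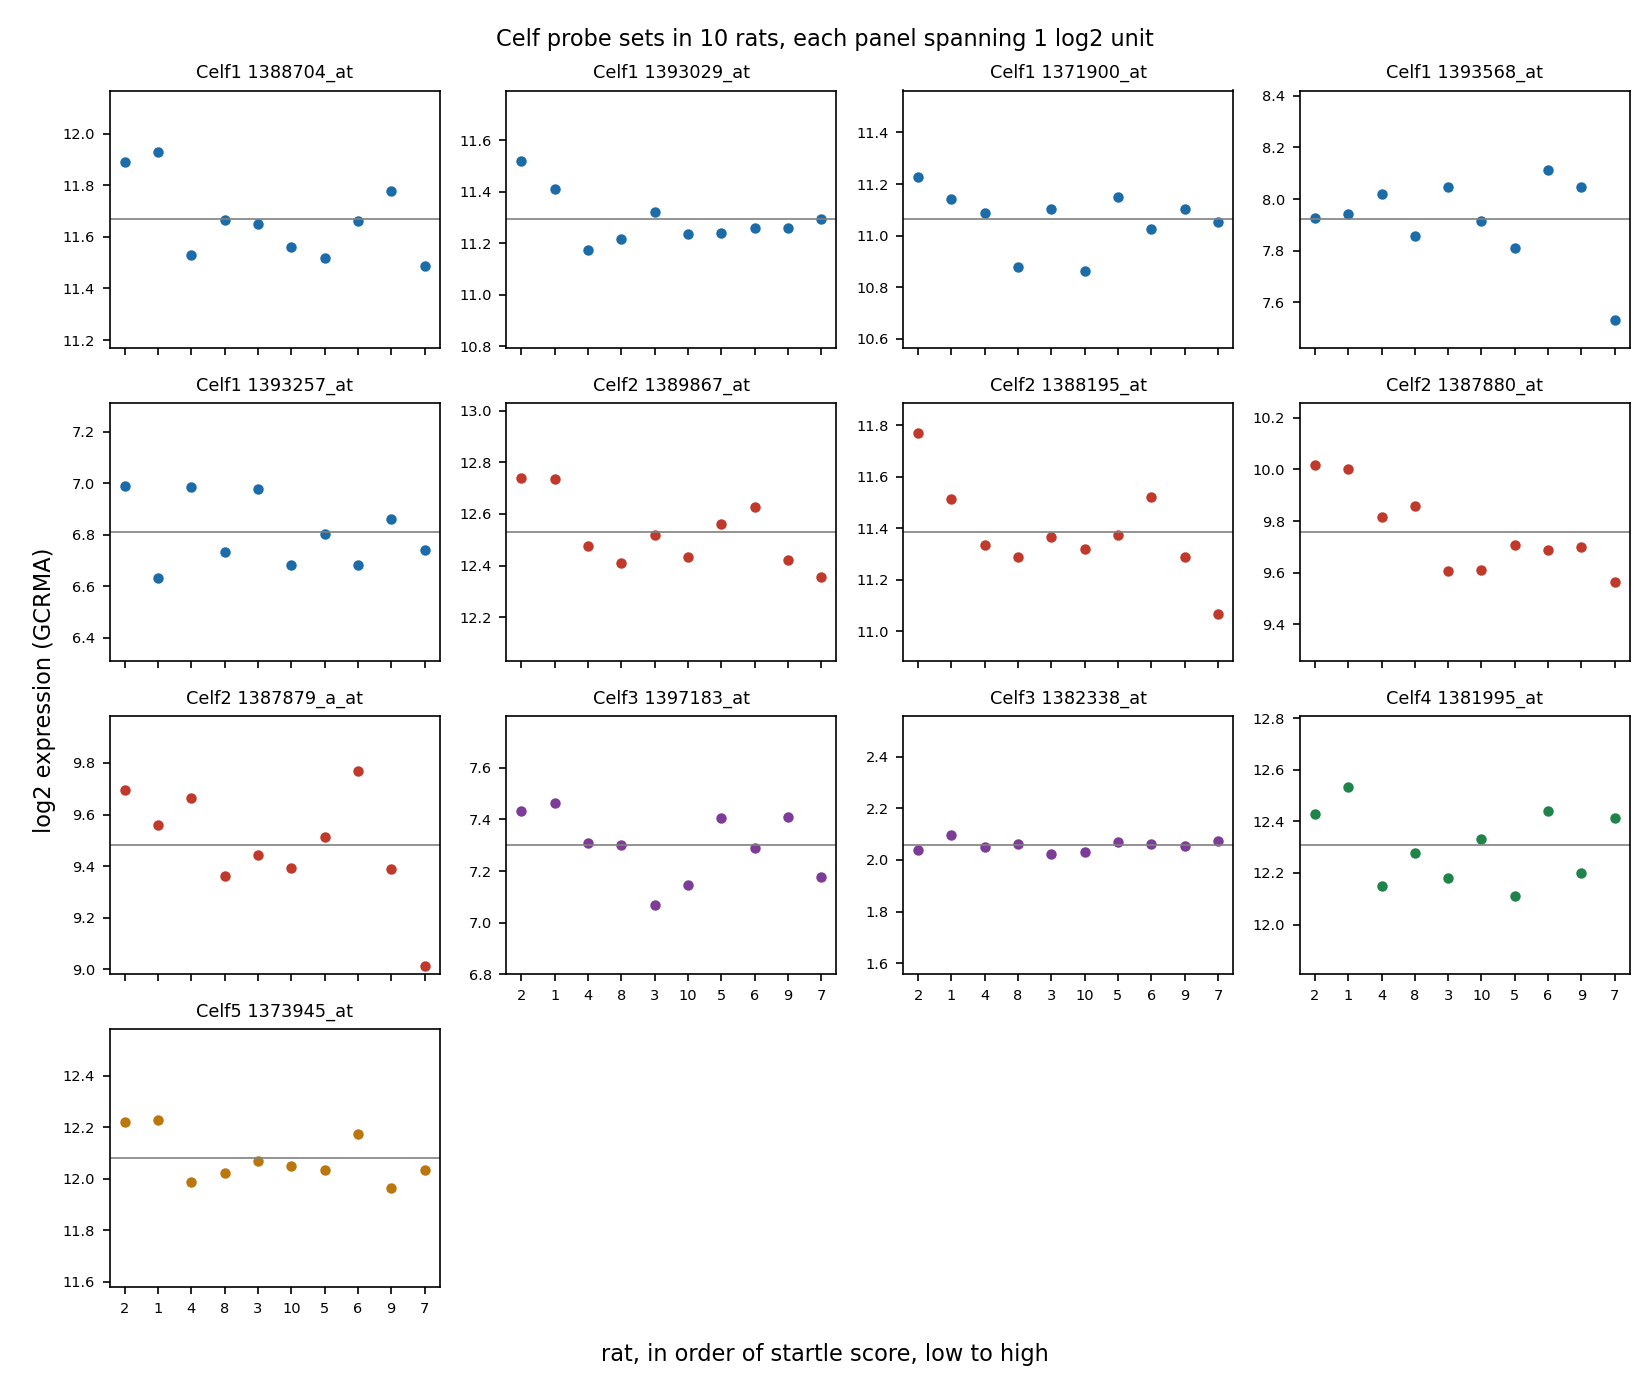
Log2 expression (GCRMA) of the 13 Celf probe sets in 10 rats, 1 panel per probe set, with rats in order of startle score from low (rat 2) to high (rat 7) and a grey line at the mean. Every panel spans 1 log2 unit, and rats 2 and 1 lie above the line on all tested probe sets but 1393257_at, where rat 1 is below it.

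Startle, the values that picked the family, is given first and without a test. Slopes are log2 differences for each SD of a score, from a linear model fitted to all 15521 tested probe sets, and 1 SD of startle was 208. All 4 Celf2 slopes were negative: -0.14 ± 0.03 for 1387880_at, -0.13 ± 0.05 for 1388195_at, -0.11 ± 0.06 for 1387879_a_at and -0.09 ± 0.04 for 1389867_at (SE, n = 10). For 1387880_at that is a change of -9.22% in signal per SD. The 5 Celf1 slopes ran from -0.09 to -0.036, and those of Celf3, Celf4 and Celf5 were -0.05 ± 0.04, -0.035 ± 0.047 and -0.05 ± 0.03. Negative slopes were thus found in 12 of 12 Celf probe sets, with a median of -0.05, and in 62.3% of all tested probe sets, with a median of -0.015. After a second quantile normalization 11 of 12 were negative, with Celf4 at 0.0026 and a median of -0.027. With arrays centred on their medians all 12 were negative, with a median of -0.031. The median of all probe sets turned to 0.0068 and 0.0085 in these settings.

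Rats 1 and 2 carried much of this. Without both, a setting chosen after seeing the data, 6 of 12 Celf slopes were negative and their median was 0.0002. The median over all tested probe sets also moved, from -0.015 as reported to 0.0036. Celf2 1387879_a_at then stood at -0.10, 1387880_at at -0.07, 1388195_at at -0.034 and 1389867_at at -0.0093. Celf4 stood at 0.06. Leaving out any single rat kept all 4 Celf2 slopes negative, with 1387880_at between -0.15 and -0.11 and 1387879_a_at between -0.16 and -0.05. The weakest value of 1387879_a_at was the one without rat 7, and 1388195_at stood at -0.07 without rat 2. With the 4 scores in 1 model 9 of 12 Celf slopes were negative, with a median of -0.029, against -0.0046 over all tested probe sets. Celf2 1389867_at was then at -0.001 ± 0.046, while the other 3 Celf2 probe sets lay between -0.11 and -0.06, and Celf1 1371900_at, Celf3 and Celf4 were positive at 0.06, 0.023 and 0.022.

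Prepulse inhibition, the damping of a startle by a weaker sound just before it, was the tested score with the most Celf probe sets at a small p. It averaged 27.3 with an SD of 12.6 (n = 10), and rats 1 and 2 had the lowest scores, 6.80 and 10.74, next to 18.38 in rat 3. Prepulse inhibition is measured on startle responses, and over the rats both scores gave r = 0.45 (p = 0.189 by permutation, 0.284 adjusted over 6 pairs of scores) and rho = 0.31 (p = 0.388 by permutation, 0.582 adjusted), and r was -0.36 without rats 1 and 2.

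No Celf probe set passed the threshold for prepulse inhibition. By limma 0% of the 15521 tested probe sets had an adjusted p under 0.05, and the unmoderated Pearson test and eBayes with trend and robust options also called 0. The smallest unadjusted p among the members belonged to Celf1 1393029_at, with a slope of -0.09 ± 0.02 (SE, n = 10; limma p = 0.00426, adjusted p = 0.630). Celf5 had a slope of -0.08 ± 0.02 (limma p = 0.00664, adjusted p = 0.630). For Celf4 the slope was -0.11 ± 0.04 (limma p = 0.0114, adjusted p = 0.630). Two-sided p under 0.05 before adjustment were also found for Celf2 1389867_at, at -0.09 ± 0.04, and Celf1 1388704_at, at -0.10 ± 0.04.

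These 5 probe sets, from 4 genes, made 5 of 12 with a negative slope and an unadjusted p under 0.05, against 5.44% of all tested probe sets. That count is not independent of the choice of the family by startle. Rats 1 and 2 had the lowest scores on both startle and prepulse inhibition, and 1389867_at belongs to Celf2. The Celf probe sets were measured on the same rats and varied together, so they are not 5 separate observations. Of the rest, Celf2 1388195_at had -0.10 ± 0.05, 1387880_at -0.06 ± 0.05 and 1387879_a_at -0.037 ± 0.068. Celf1 1371900_at had -0.04 ± 0.04, Celf1 1393568_at -0.010 ± 0.054 and Celf3 -0.0052 ± 0.0451, while Celf1 1393257_at was the only positive one, at 0.017 ± 0.046. In all 11 of 12 slopes were negative, with a median of -0.07, against 58.7% of all tested probe sets, with a median of -0.010.

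**Figure D2:**
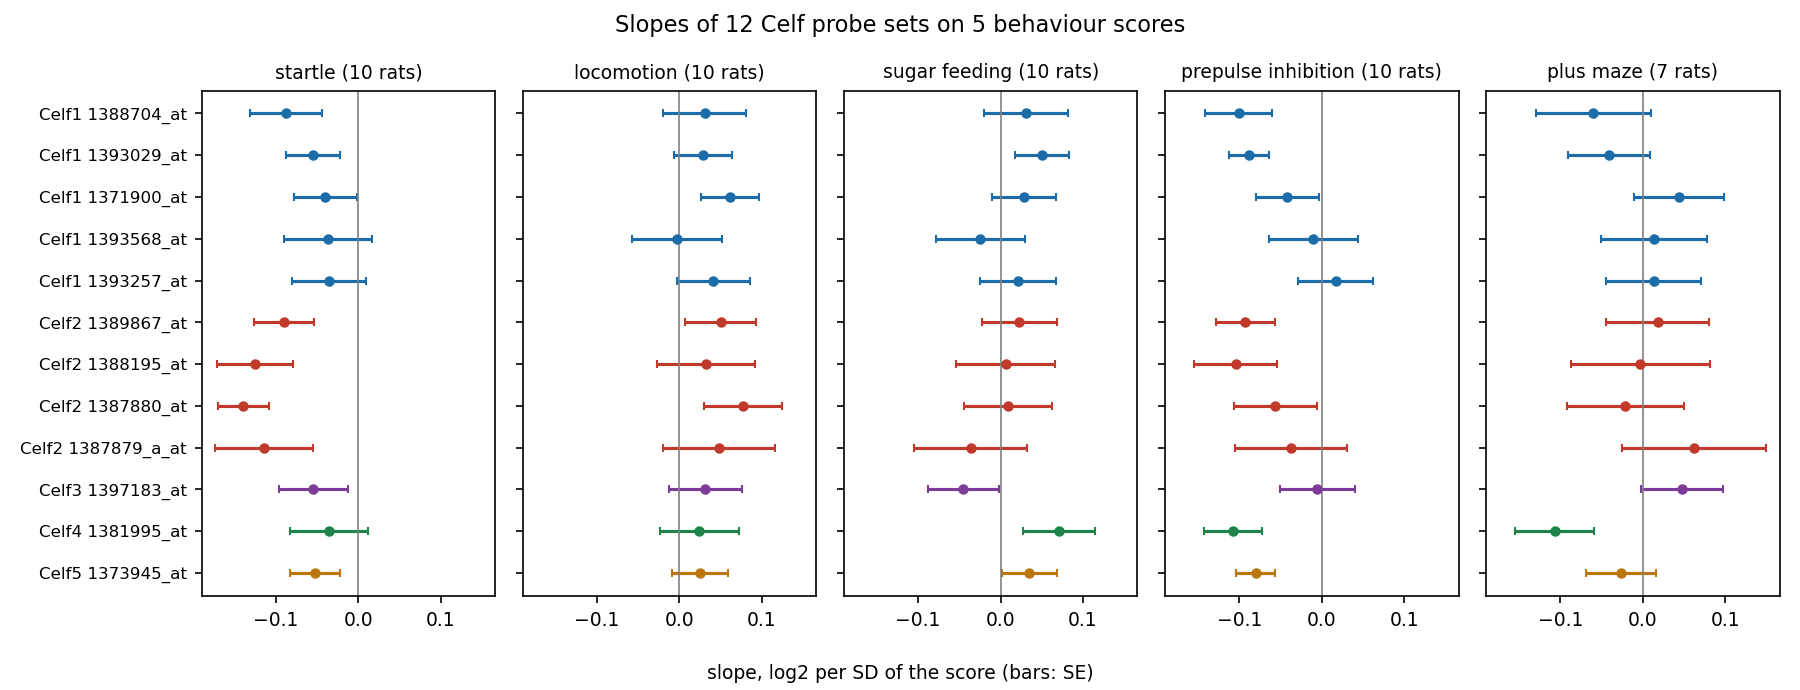
Slopes (points) with their SE (bars), in log2 per SD of the score, of the 12 tested Celf probe sets on 5 scores, each score in its own panel with the number of rats in the fit. On startle all 12 points lie left of 0 and on prepulse inhibition 11 do, while on the plus maze score they divide into 6 and 6.

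The order of the rats differed between the probe sets with small p. On Celf1 1393029_at the levels of the 4 rats of highest prepulse inhibition, numbers 9, 5, 8 and 4, were 11.26, 11.24, 11.22 and 11.17 log2, those of rats 10, 6 and 7 were 11.23, 11.26 and 11.29, and rat 3 was at 11.32. Celf5 in the same 4 rats was at 11.96, 12.04, 12.02 and 11.99 log2, and rat 6 stood out among those of middle score at 12.17. Celf4 was at 12.20, 12.11, 12.28 and 12.15 log2 in them, and rat 3, with a low score, was at 12.18. All other rats lay below rats 1 and 2 on these 3 probe sets, apart from rat 6 on Celf4, at 12.44 log2 next to 12.43 in rat 2.

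Without rats 1 and 2, 0 Celf slopes on prepulse inhibition were negative with an unadjusted p under 0.05. The slope of Celf1 1393029_at was then -0.037 ± 0.024, that of Celf5 -0.039 ± 0.028 and that of Celf4 -0.06 ± 0.04, while Celf1 1388704_at stood at -0.0019. In that fit 2 probe sets had positive slopes with an unadjusted p under 0.05, Celf3 at 0.10 and Celf2 1387880_at at 0.08, and the smallest adjusted p among the members was 1.00. Among all 15521 tested probe sets 221 were positive and 126 negative at an unadjusted p under 0.05 in that fit, against 305 and 845 as reported. Leaving out 1 rat at a time kept the 5 probe sets with small p negative, with 1393029_at between -0.10 and -0.06. The count of 5 was 2 without rat 1 and 3 without rat 2, and the median slope of the family was -0.048 and -0.034 in these fits. Among all tested probe sets 390 and 427 were negative with an unadjusted p under 0.05 in these fits, against 845 as reported. The Celf count was 3 with the startle score as a covariate, 3 with the score of striatal markers as a covariate and 1 with the 4 scores in 1 model. Negative slopes at an unadjusted p under 0.05 among all tested probe sets numbered 403, 493 and 792 in the same order.

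After a second quantile normalization 1 Celf probe set kept an unadjusted p under 0.05, Celf4 at -0.08 ± 0.03, and 9 of 12 slopes were negative. The split over all probe sets with an unadjusted p under 0.05 then turned to 599 positive and 526 negative, against 305 and 845 as reported. With arrays centred on their medians the count was 5, again with 9 of 12 negative, and the split was 542 and 610.

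**Figure D3:**
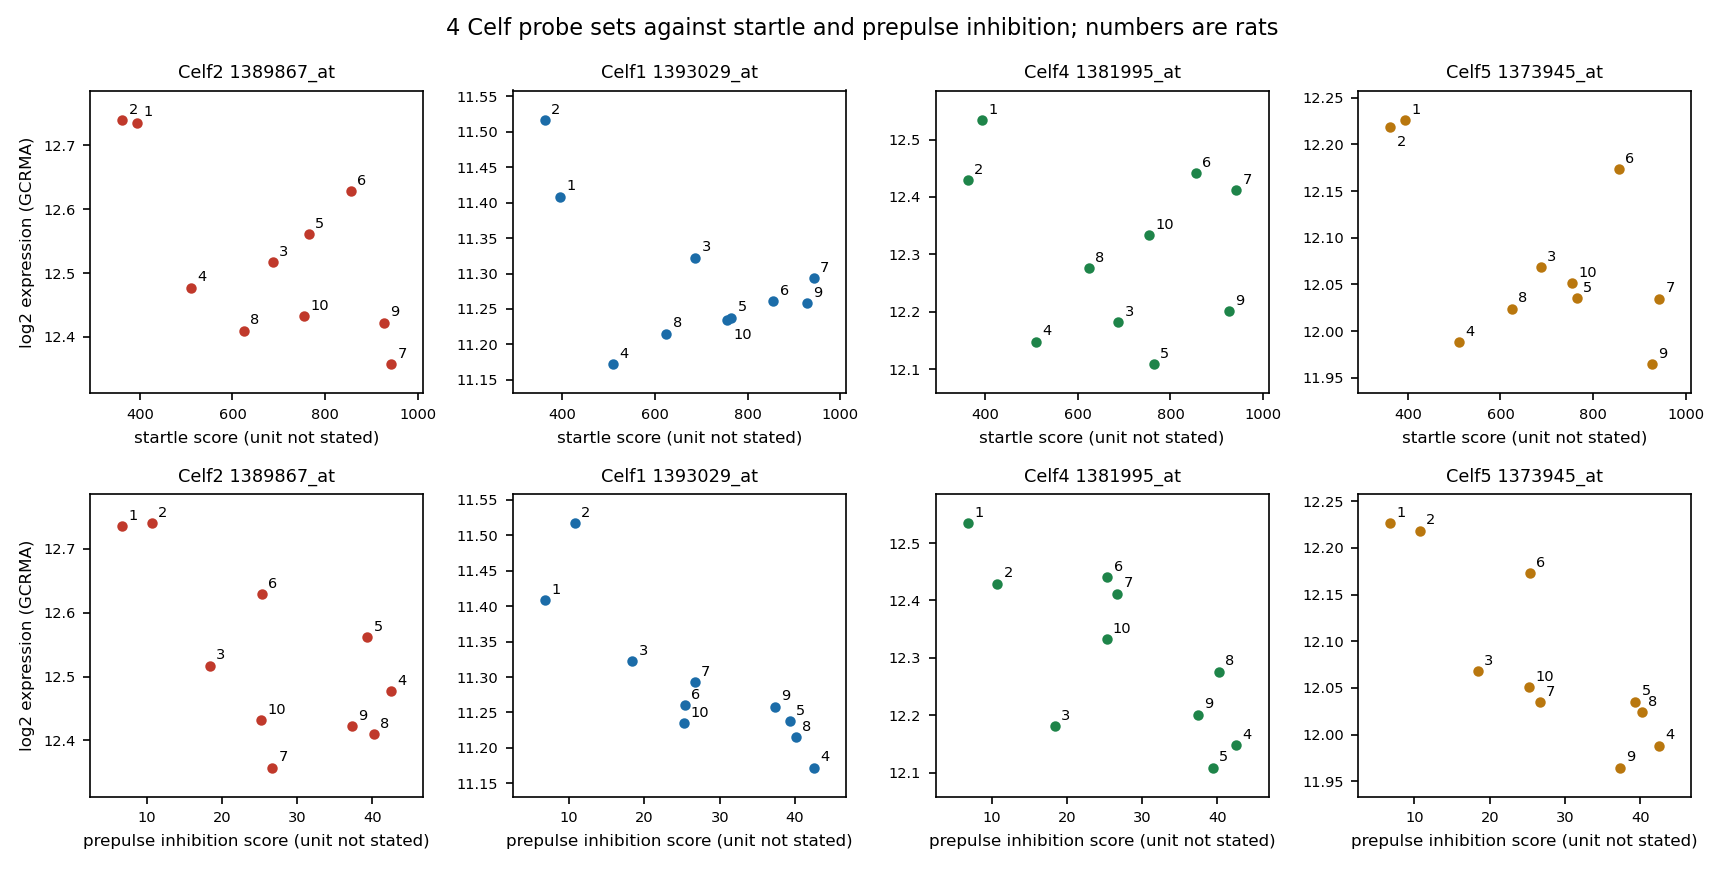
Log2 expression (GCRMA) of Celf2 1389867_at, Celf1 1393029_at, Celf4 1381995_at and Celf5 1373945_at against the startle score (top) and the prepulse inhibition score (bottom, units not stated), 1 numbered point per rat. Rats 1 and 2 lie at the upper left of every panel, and over the other 8 rats the startle slopes were -0.0093, 0.028, 0.06 and 0.012 in the order of the panels.

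Locomotion ran the other way from startle (r = -0.63, p = 0.0544 by permutation, 0.109 adjusted; rho = -0.47, p = 0.179 by permutation, 0.358 adjusted; r = -0.49 without rats 1 and 2). Positive slopes on it were found in 11 of 12 Celf probe sets, against 65.4% of all tested probe sets. As with prepulse inhibition, that count is not independent of the choice of the family by startle. The median Celf slope was 0.03, against 0.015 over all probe sets. The 4 Celf2 slopes ran from 0.033 to 0.08. Celf1 1371900_at had the smallest p, with a slope of 0.06 ± 0.04 (SE, n = 10; limma p = 0.114, adjusted p = 1.00). By limma 0% of all probe sets passed the adjusted threshold and 2.93% had an unadjusted p under 0.05, while 0 of 12 Celf probe sets had one. Those with an unadjusted p under 0.05 were 359 positive and 96 negative, and 186 and 272 after a second quantile normalization, which left 2 Celf slopes negative. With startle as a covariate 9 of 12 slopes were negative, with a median of -0.012, against 0.0064 over all tested probe sets.

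Sugar feeding, the intake of a sweet food, gave slopes from -0.05 (Celf3) to 0.07 (Celf4), with a median of 0.022. Celf4, at 0.07 ± 0.04 (SE, n = 10), had the smallest p (limma p = 0.132, adjusted p = 1.00). Of the Celf probe sets 0 of 12 had an unadjusted p under 0.05, against 2.13% of all tested probe sets, and 0% passed the adjusted threshold. The probe sets at an unadjusted p under 0.05 were 225 positive and 105 negative, and 171 and 193 after a second quantile normalization, which left 6 of 12 Celf slopes negative. The 4 Celf2 slopes lay between -0.036 and 0.023. Over the rats sugar feeding had r = -0.67 with prepulse inhibition (p = 0.0389 by permutation, 0.109 adjusted), with rho = -0.56 (p = 0.0975 by permutation, 0.293 adjusted). With locomotion r was 0.63 (p = 0.0527 by permutation, 0.109 adjusted) and rho = 0.59 (p = 0.0793 by permutation, 0.293 adjusted). The part of these relations in the fits with the 4 scores in 1 model was not tested.

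The plus maze score, available in 7 rats, divided the family. Celf4 had the lowest slope, -0.11 ± 0.05 (SE, n = 7; limma adjusted p = 0.736), and Celf2 1387879_a_at the highest, at 0.06 ± 0.09, with 6 slopes negative and 6 positive. Again 0 of 12 had an unadjusted p under 0.05, against 6.95% of all tested probe sets, and 0% passed the adjusted threshold. The probe sets at an unadjusted p under 0.05 were 187 positive and 891 negative, 225 and 484 after a second quantile normalization, and 265 and 93 without rat 5. Celf4 was negative in all 7 fits that left out 1 rat, between -0.12 and -0.06, the weaker end being that without rat 5, whose score of 60.29 was the highest.

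The probe sets were next compared with each other over the rats. Several Celf2 probe sets were picked for a shared relation to startle, so r among Celf2 probe sets is given without a test, and p-values were adjusted over the other 60 pairs, a family chosen after seeing the data. Of the 66 pairs among the 12 tested probe sets, 60 had a positive Pearson's r, and r ran from -0.55 to 0.91 with a median of 0.48. All 6 Celf2 pairs were positive, with a median of 0.72, while the 10 Celf1 pairs ran from -0.024 to 0.76 with a median of 0.32. Probe sets of 1 gene share a target, and all share the array. How often pairs of other tested probe sets have a positive r or a small p was not computed.

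Celf2 1389867_at and 1388195_at followed each other most closely, with r = 0.91 and rho = 0.98, and r = 0.90 without rats 1 and 2. Between different genes the closest pair was Celf2 1389867_at with Celf5, at r = 0.89 (p = 0.00151 by permutation, 0.0906 adjusted) and rho = 0.79 (p = 0.00902 by permutation, 0.18 adjusted). Without rats 1 and 2 that r was 0.68. Celf5 and Celf4 had r = 0.79 (p = 0.00795 by permutation, 0.104 adjusted) and rho = 0.66 (p = 0.0437 by permutation, 0.417 adjusted), and r = 0.74 without rats 1 and 5. Of the 60 pairs, 13 had an unadjusted p under 0.05 for r and 0 passed the adjusted threshold for r or rho.

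Celf1 1393029_at and Celf5, the probe sets with the smallest p on prepulse inhibition, had r = 0.79 (p = 0.00694 by permutation, 0.104 adjusted) and rho = 0.73 (p = 0.0208 by permutation, 0.312 adjusted), and r = 0.35 without rats 1 and 2. The most opposed pair was Celf1 1393257_at with Celf4, at r = -0.55 (p = 0.105 by permutation, 0.30 adjusted) and rho = -0.55 (p = 0.105 by permutation, 0.431 adjusted), with r = -0.78 without rats 2 and 4. Celf1 1393029_at and Celf2 1387880_at showed how far 1 pair can rest on rats 1 and 2: r was 0.56 (p = 0.087 by permutation, 0.275 adjusted) with rho = 0.08 (p = 0.838 by permutation, 0.95 adjusted), and r was -0.78 without them.

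**Figure D4:**
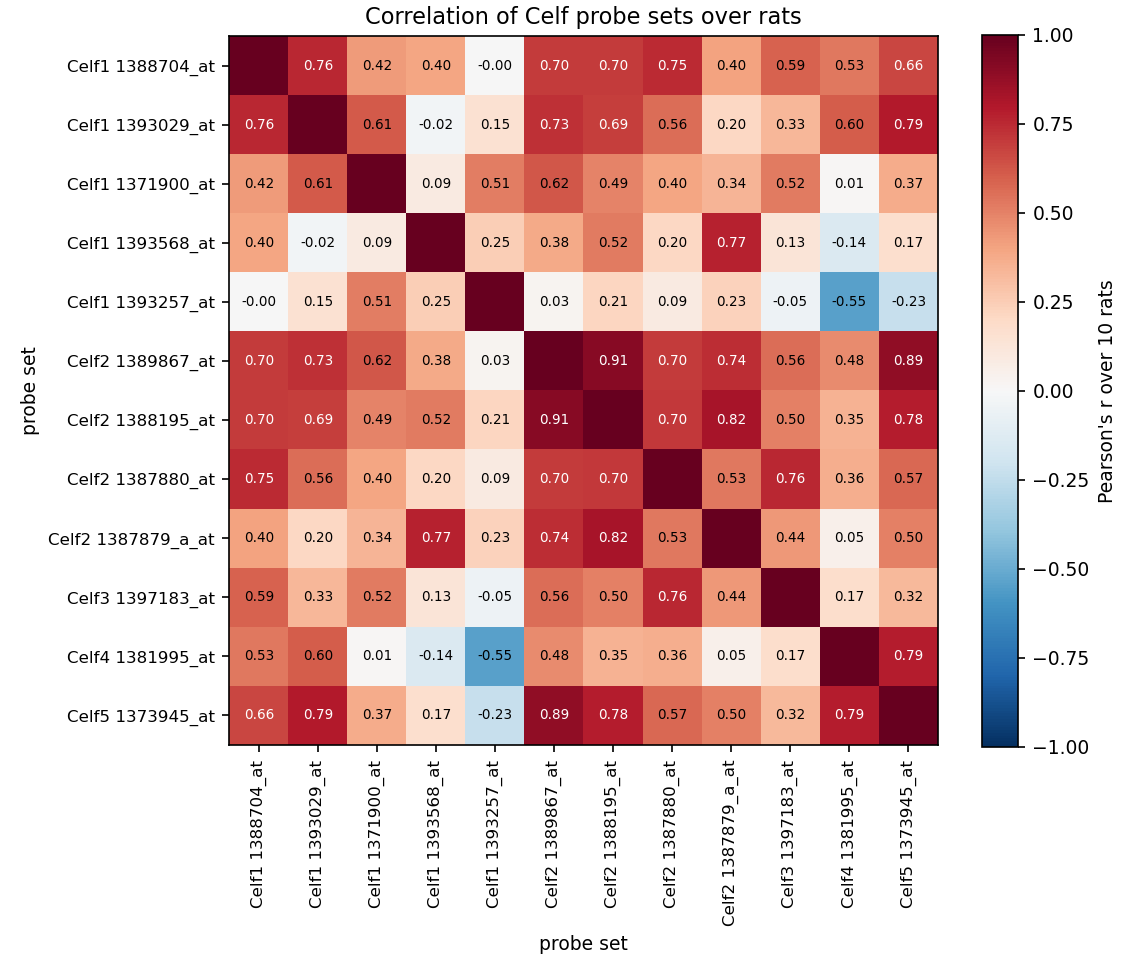
Pearson's r over 10 rats for every pair of the 12 tested Celf probe sets, written in each cell and coloured from -1 (blue) to 1 (red). The Celf2 block is red throughout, at 0.53 to 0.91, and Celf1 1393257_at, down to -0.55 with Celf4, is the palest row.

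Celf2 was next summarised as 1 level per rat, the mean of the centred log2 values of its 4 probe sets. It was 0.27 and 0.17 in rats 2 and 1, 0.11 in rat 6 and -0.29 in rat 7, with the other 6 rats between -0.10 and 0.03. In bulk tissue fewer cells of a type and less RNA per cell cannot be told apart. Set against 13 technical and marker measures, no correlation passed the adjusted threshold. The level is made of the Celf2 probe sets, several of which were picked for startle. Its highest and lowest rats, 2 and 7, also had the lowest and highest startle scores, 362.5 and 942.5. The p-values of its correlations are therefore not independent of that choice.

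The largest r was with endothelial markers (4 of 5 tested, score -0.32 in rat 7 to 0.32 in rat 6), at 0.76 (p = 0.0125 by permutation, 0.111 adjusted over 13 measures) and rho = 0.76 (p = 0.0148 by permutation, 0.147 adjusted), and r was 0.82 without rats 2 and 7. The score of striatal projection neuron markers (6 of 8 tested) ran from -0.78 in rat 2 to 1.78 in rat 7, the highest and the lowest rat of Celf2. With it r was -0.68 (p = 0.0321 by permutation, 0.121 adjusted) and rho = -0.64 (p = 0.054 by permutation, 0.175 adjusted), but -0.26 without those rats. Excitatory neuron markers (5 of 6 tested, -0.24 to 0.19) gave r = 0.66 (p = 0.0373 by permutation, 0.121 adjusted), rho = 0.48 (p = 0.166 by permutation, 0.359 adjusted) and r = 0.26 without rats 2 and 7.

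The mean of tested probe sets without a gene symbol, which ran from 7.50 to 7.76 log2, gave r = 0.73 (p = 0.0171 by permutation, 0.111 adjusted), rho = 0.71 (p = 0.0268 by permutation, 0.147 adjusted) and r = 0.63 without rats 2 and 7. The mean of 18 spike-in controls ran from 11.23 in rat 10 to 12.14 in rat 2, and gave r = 0.57 (p = 0.0828 by permutation, 0.215 adjusted), rho = 0.68 (p = 0.034 by permutation, 0.147 adjusted) and r = 0.85 without rats 2 and 7. The part of these measures in the Celf slopes was not tested, apart from the striatal score as a covariate. With that covariate the startle slopes of Celf2 lay between -0.13 and -0.07. The log2 difference between 3′ and 5′ control probe sets, a measure of RNA quality, was highest in rat 7 for Actb (2.59) and Gapdh (0.32). With the Celf2 level it gave r = -0.52 for Actb (p = 0.12 by permutation, 0.256 adjusted), with rho = -0.18 (p = 0.631 by permutation, 0.735 adjusted) and r = -0.25 without rats 2 and 7. For Gapdh r was -0.50 (p = 0.138 by permutation, 0.256 adjusted), with rho = -0.48 (p = 0.166 by permutation, 0.359 adjusted) and r = -0.21 without them. Their part was not tested.

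Of the 8478 other named genes, the 6 whose level followed Celf2 most closely over the 10 rats were Tafazzin, of mitochondrial cardiolipin remodelling (r = 0.97), Srrt, of nuclear RNA processing (0.96), Ralyl (0.93), Kiaa0319 (0.93), Numb, an endocytic adaptor and Notch antagonist (0.93), and Kdr, the endothelial VEGF receptor (0.92). The 4 most opposed were Tnfaip8l3 (-0.93), Rnaseh2a, of a ribonuclease H2 complex (-0.91), Synm, an intermediate filament gene (-0.89), and Foxo4, a forkhead transcription factor gene (-0.88). All 10 were at 1 end of their range in rat 2 and at the other in rat 7, so each shares its extreme rats with Celf2. Being the extremes of 8478, they are a description without a test.

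Other RNA-binding regulators and CELF-bound transcripts were read from 3 lists. Of 21 neuronal splicing regulators, among them the muscleblind, Rbfox, Nova, Elavl and Ptbp genes, 16 were tested with 29 probe sets. On prepulse inhibition 0 passed the adjusted threshold, 3 of 29 were negative with an unadjusted p under 0.05, against 5.44% of all tested probe sets, and 1 was positive. The median slope was -0.014, against -0.010 over all probe sets. The list median turned to 0.0096 after a second quantile normalization and 0.0005 with centred arrays, against 0.0072 and 0.0037 over all probe sets. The smallest p of the list belonged to 2 probe sets of Elavl3, a neuronal Hu protein gene that stabilises mRNAs, at -0.17 ± 0.04 (limma p = 0.00126, adjusted p = 0.630) and -0.15 ± 0.05. Mbnl1, a muscleblind gene, led on locomotion at 0.08 ± 0.04 and 0.06 ± 0.04 for 2 probe sets, and the same Elavl3 probe sets led on sugar feeding at 0.09 ± 0.06 each.

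SR and hnRNP proteins, general splicing factors, had 22 of 26 genes tested with 40 probe sets. Slopes on prepulse inhibition were negative in 36 of 40, against 58.7% of all tested probe sets, with a median of -0.06. At an unadjusted p under 0.05 there were 7 negative, against 5.44% of all tested probe sets, and 0 positive, and 0 passed the adjusted threshold. The median of the 12 Celf probe sets was -0.07. After a second quantile normalization 30 of the 40 were negative, with a median of -0.032, against 0.0072 over all tested probe sets. Without rats 1 and 2 there were 19, with a median of 0.0072, against 0.0074 over all tested probe sets. Srsf5 had -0.08 ± 0.03 and Hnrnph1 -0.09 ± 0.03. On startle 36 of 40 slopes were also negative, against 62.3% of all tested probe sets. The list median was -0.06, against -0.05 for the 12 Celf probe sets and -0.015 for all probe sets. Without rats 1 and 2 there were 22 negative, with a median of -0.0026, against 0.0036 over all tested probe sets. After a second quantile normalization there were 30, with a median of -0.036, against 0.0068 over all tested probe sets. On locomotion Srsf1 led at 0.09 ± 0.03 and Tra2a at 0.12 ± 0.04, and on sugar feeding Hnrnpa2b1 at 0.15 ± 0.05 and Srsf6 at 0.06 ± 0.03.

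Transcripts known to be bound or spliced by CELF proteins, with the deadenylase gene Parn, had 8 of 11 genes tested with 14 probe sets. Their median slope on prepulse inhibition was -0.015, near that of all probe sets. After a second quantile normalization the list median was 0.0087, against 0.0072 over all probe sets. At an unadjusted p under 0.05 there were 0 positive and 1 of 14 negative, against 5.44% negative among all tested probe sets. The negative one was Mapt, the tau gene, at -0.07 ± 0.03 (limma p = 0.0426, adjusted p = 0.662), and Insr, the insulin receptor gene, followed at 0.08 ± 0.04. Jun (0.05 ± 0.03) and Insr (0.06 ± 0.04) led on locomotion, and the NMDA receptor gene Grin1 (-0.06 ± 0.04) and the sodium channel gene Scn8a (-0.07 ± 0.09) on sugar feeding. A probe set reports the amount of a transcript, and exon choice in these transcripts was not measured.

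**Figure D5:**
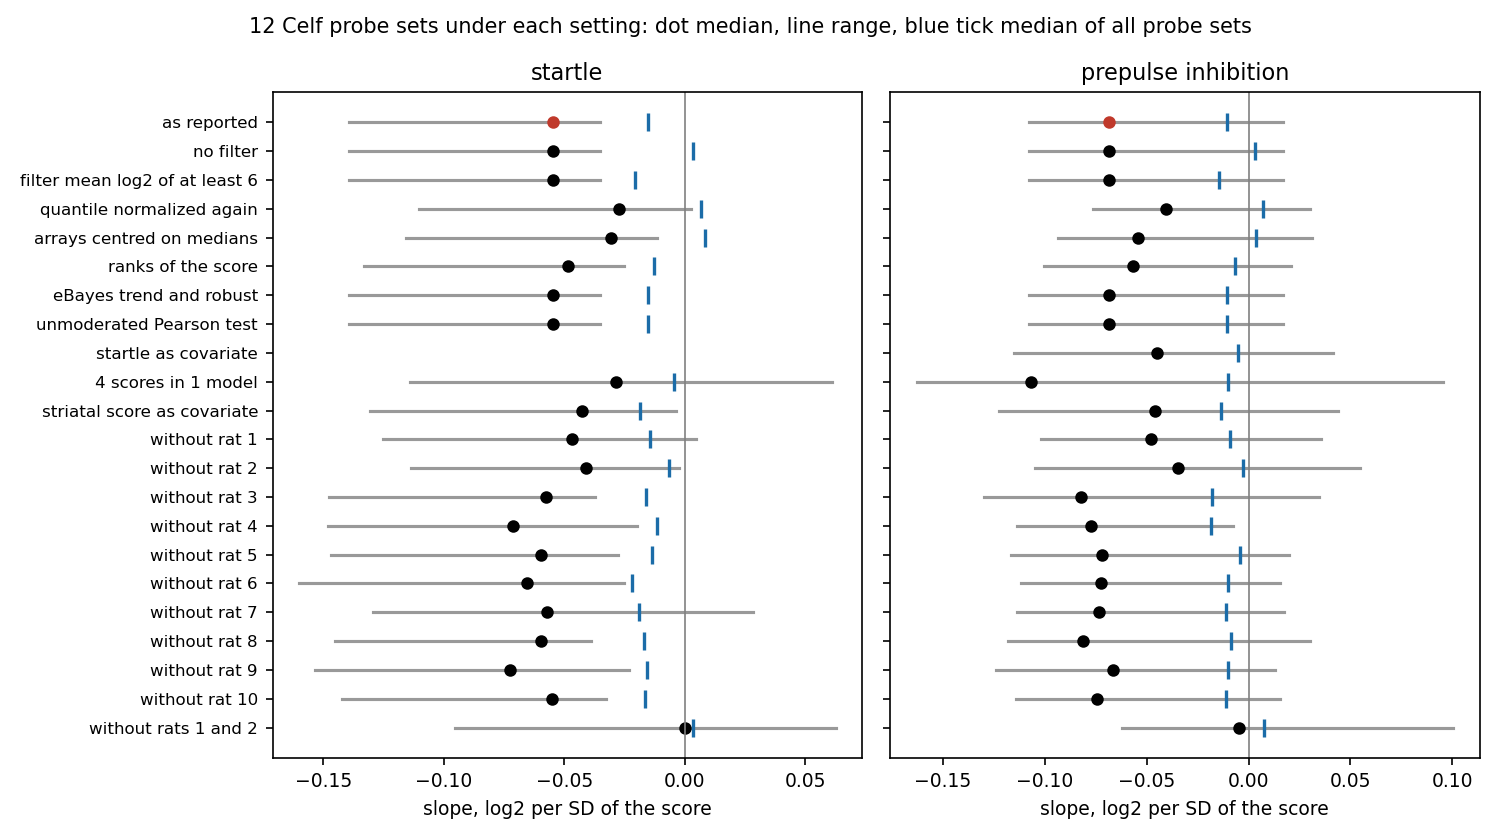
Slopes of the 12 tested Celf probe sets, in log2 per SD of the score, on startle (left) and prepulse inhibition (right) under each setting, with the median (dot, red as reported), the range (grey line) and the median of all tested probe sets (blue tick). Without rats 1 and 2 the Celf medians lie at 0.0002 and -0.0048, against -0.05 and -0.07 as reported. The blue ticks then lie at 0.0036 and 0.0074.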

How the data were processed

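The authors deposited log2 expression summaries per probe set, made with GCRMA under R 2.6.2 per the submitters' processing notes. GCRMA corrects background by probe sequence, normalises by quantiles and summarises probes; no label gives its version. There were 31099 probe sets, 57 of them array controls, which entered no test. Names came from the platform annotation, and 20758 gene numbers matched RefSeq's GRCr8 tables with 0 symbols changed.

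The upper 50% of probe sets by mean (at least 3.99 log2) were kept, 15521 in all. Each score was divided by its SD among the fitted rats, and slopes came from lmFit and eBayes of limma 3.58.1 under R 4.3.3, two-sided, with Benjamini-Hochberg adjustment over all kept probe sets and a threshold of 0.05. The fit was tested on simulated data. Correlations used 100000 permutations (numpy 2.4.6), two-sided, adjusted within each family, and r was also computed with the 2 rats farthest from the first measure's median left out. A marker score is the mean centred log2 value over the probe set of highest mean of each tested gene of a list.

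Members and lists were chosen with earlier results of these data known. All Celf probe sets are named, with the 6 genes most like Celf2, the 4 most opposed and, per list and main score other than startle, the 2 probe sets of smallest p. Slopes are given singly for startle, for prepulse inhibition and, on other scores, for the smallest p. Alternatives changed the filter, normalization, score scale, variance model, covariates and rats.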

Additional observations from a re-analysis of the deposited data

Results flagged for a closer look

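Of 14 sets of values examined, the 13 Celf probe sets and the Celf2 level, 1 had a rat set apart from the others by more than Dixon's 95% limit for 10 samples, a limit that chance passes in about 1 of 20 groups. On Celf1 1393568_at rat 7 was at 7.53 log2, below the next lowest rat at 7.81, a gap of 0.481 of the whole range. Celf2 1387879_a_at came close, with rat 7 again lowest and a gap of 0.46 of the range.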

How the results depend on the processing

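No paired analysis was possible because the series is 1 group of rats, each with 1 array, so no sample has a partner. For locomotion, sugar feeding, prepulse inhibition and the plus maze score, 0 probe sets passed the adjusted threshold under each alternative run. The plus maze score was not run together with the 4 other scores, and rats 3, 6 and 9 have no such score to leave out. The number of Celf probe sets with an unadjusted p under 0.05 changed as follows. For prepulse inhibition it was 5 as reported, 1 after quantile normalization and with the 4 scores in 1 model, 3 with startle or the striatal score as a covariate, 2 to 6 without single rats, and 2, both positive, without rats 1 and 2. For locomotion it was 0 as reported, 1 with ranks of the score and 0 to 1 without single rats. For sugar feeding it was 0 as reported, 2 with the 4 scores in 1 model, 0 to 1 without single rats and 1 without rats 1 and 2. For the plus maze score it was 0 as reported, 2 with the striatal covariate and 0 to 1 without single rats. Among all 15521 tested probe sets, those with an unadjusted p under 0.05 on locomotion with ranks were 402 positive and 97 negative. On sugar feeding they were 218 and 448 with the 4 scores in 1 model, and 183 and 151 without rats 1 and 2. On the plus maze score with the striatal covariate they were 248 and 977. For prepulse inhibition the Celf count of 2 came without rat 1, with 211 and 390, and that of 6 without rat 7, with 344 and 968. For locomotion the Celf count of 1 came without rat 1, with 391 and 109, and without rat 4, with 920 and 380. For sugar feeding it came without rat 3, with 938 and 101, and for the plus maze score without rat 1, with 220 and 821. The median Celf slope on startle was 0.0002 without rats 1 and 2, against 0.0036 over all tested probe sets. On sugar feeding the median, 0.022 as reported, was -0.08 with the 4 scores in 1 model, where 11 of 12 slopes were negative, and -0.027 without rats 1 and 2. The medians over all tested probe sets were -0.009 and -0.0003 in the same order. Without single rats the Celf median on sugar feeding ran from -0.0018 (without rat 1) to 0.0475 (without rat 7). On locomotion the median, 0.03 as reported, was -0.011 without rats 1 and 2 and -0.012 with startle as a covariate, and ran from 0.010 (without rat 1) to 0.07 (without rat 4). Adjusted over all 66 pairs, those within Celf2 included, Celf2 1389867_at with Celf5 had an adjusted p of 0.0498 for r, against 0.0906 over 60. The causes were not tested.

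Of 252 slopes on prepulse inhibition under alternatives 22 changed sign, all of probe sets with an unadjusted p above 0.05 as reported. Changing the filter, the variance model or the test leaves a slope as it is, so part of the 252 could not change sign. Celf1 1393568_at turned to 0.0024 after quantile normalization, 0.0039 with centred arrays, 0.0077 with the startle covariate and 0.0437 with the striatal covariate. Celf3 turned to 0.0092, 0.009, 0.024 and 0.023 in the same order, and to 0.0006 with ranks. Celf2 1387879_a_at turned to 0.018 with the startle and 0.0195 with the striatal covariate, and 1387880_at to 0.0083 with the startle covariate. Without rats 1 and 2 the values were 0.011 for Celf1 1371900_at, 0.037 for Celf2 1387879_a_at, 0.0836 for 1387880_at and 0.10 for Celf3. Without single rats Celf3 ranged from -0.0275 to 0.036, Celf1 1393568_at from -0.029 to 0.0031 and Celf1 1393257_at from -0.024 to 0.0547. Celf4 on sugar feeding turned to -0.0091 with the 4 scores in 1 model.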
